A study of Mus musculus with 20 samples.

Results

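The cell cycle genes described here are 42 mouse genes of DNA replication, cell cycle transitions and mitosis. They were chosen by name for their known roles, out of 23854 gene symbols present in all deposited count tables. By role they are 14 licensing and helicase genes, 4 genes of the replication clamp and nucleotide supply, 6 G1 and S phase genes (5 cyclins and Cdk2), 4 G2 and M phase genes, 9 mitotic kinase and checkpoint genes, and 5 genes of the retinoblastoma pathway and its inhibitors. Every one of the 42 had at least 6 reads in each library and passed the filter on low counts in each fit, so none is missing below.

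RNA was sequenced from male mouse germ cells that had been sorted for green fluorescence, without or with a working copy of Tex15. Tex15 is a germ cell gene needed for spermatogenesis and for the silencing of transposons in fetal germ cells. The groups were Tex15-/- (knockout) and Tex15+/- (heterozygous) cells from embryonic day 16.5 (e16.5), embryonic day 18.5 (e18.5) and day 2 after birth (d2), on a mixed strain background. Each genotype had 3 libraries at e16.5, 3 at e18.5 and 4 after birth, which makes 20 libraries. The heterozygous cells, which served as controls, also carry 1 disrupted allele, and no wild type was included. The labels do not name the source of the fluorescence, nor say whether animals were pooled; the series text calls the replicates biological. If they share animals, the p-values measure only the spread between these libraries.

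Male germ cells of the mouse divide in the fetal testis, stop in G1 in mid-gestation and stay arrested as prospermatogonia until shortly after birth, when division resumes. Arrest is held by hypophosphorylated retinoblastoma protein and by inhibitors of cyclin-dependent kinases, which keep E2F factors from switching on replication genes. Many genes of the G1 to S transition carry E2F sites near their start. Genes of G2 and mitosis often carry a cell cycle genes homology region (CHR) together with CCAAT boxes, through which the DREAM and MMB complexes act.

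Promoter windows of 6 genes are shown because they hold, in replication and in mitotic genes, the letters described above, beside a kinase inhibitor that lacks E2F-like and CHR-like letters. They were picked after the windows and the levels had been seen. The sequences come from RefSeq on GRCm38.p6, run 5′ to 3′ on the strand of the gene, and span 250 bases before to 50 bases after the annotated start. Capitals mark E2F-like letters (TTTCCCGC, TTTCGCGC, TTTGCCGC or TTTGGCGC), CHR-like letters (TTTGAA or TTCGAA) and the CCAAT box, each read on both strands.
Cdc6, chr11:98907901-98908200, plus strand: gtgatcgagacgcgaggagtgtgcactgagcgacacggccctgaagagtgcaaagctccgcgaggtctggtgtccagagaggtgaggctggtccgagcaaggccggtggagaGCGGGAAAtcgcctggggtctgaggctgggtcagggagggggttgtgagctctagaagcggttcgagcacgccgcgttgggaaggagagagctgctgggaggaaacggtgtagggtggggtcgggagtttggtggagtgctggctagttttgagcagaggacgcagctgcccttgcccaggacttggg
Mcm6, chr1:128359656-128359955, minus strand: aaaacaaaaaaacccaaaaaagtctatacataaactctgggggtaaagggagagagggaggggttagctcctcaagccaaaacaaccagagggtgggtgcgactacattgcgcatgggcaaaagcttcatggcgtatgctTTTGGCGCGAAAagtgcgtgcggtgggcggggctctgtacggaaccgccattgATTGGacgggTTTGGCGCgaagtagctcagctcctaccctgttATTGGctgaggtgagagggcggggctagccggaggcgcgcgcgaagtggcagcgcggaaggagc
Plk1, chr7:122159185-122159484, plus strand: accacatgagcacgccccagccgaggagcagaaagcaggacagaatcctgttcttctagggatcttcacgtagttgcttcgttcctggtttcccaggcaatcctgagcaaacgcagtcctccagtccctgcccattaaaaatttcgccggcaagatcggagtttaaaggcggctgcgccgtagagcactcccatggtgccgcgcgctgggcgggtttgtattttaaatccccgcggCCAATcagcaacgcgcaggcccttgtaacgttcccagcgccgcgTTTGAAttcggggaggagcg
Ccnb2, chr9:70421505-70421804, minus strand: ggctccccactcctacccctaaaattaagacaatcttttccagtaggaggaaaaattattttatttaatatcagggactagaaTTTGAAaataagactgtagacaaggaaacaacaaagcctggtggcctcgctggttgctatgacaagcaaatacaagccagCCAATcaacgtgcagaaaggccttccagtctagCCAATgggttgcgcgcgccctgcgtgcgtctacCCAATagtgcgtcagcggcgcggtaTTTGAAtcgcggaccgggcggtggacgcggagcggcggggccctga
Bub1, chr2:127831810-127832109, minus strand: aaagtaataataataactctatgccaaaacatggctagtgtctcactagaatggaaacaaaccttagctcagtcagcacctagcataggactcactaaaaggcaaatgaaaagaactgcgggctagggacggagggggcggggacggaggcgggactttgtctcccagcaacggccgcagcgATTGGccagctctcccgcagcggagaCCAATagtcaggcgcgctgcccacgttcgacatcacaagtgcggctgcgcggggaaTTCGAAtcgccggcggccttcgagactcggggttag
Cdkn1b, chr6:134920151-134920450, plus strand: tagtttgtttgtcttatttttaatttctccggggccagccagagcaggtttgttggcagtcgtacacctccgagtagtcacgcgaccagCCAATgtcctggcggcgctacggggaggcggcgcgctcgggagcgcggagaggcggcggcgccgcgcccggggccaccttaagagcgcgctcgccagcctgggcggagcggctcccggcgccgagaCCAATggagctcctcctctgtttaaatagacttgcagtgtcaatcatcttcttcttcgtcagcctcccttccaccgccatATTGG

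In these windows Cdc6, an origin licensing factor, had 1 E2F-like match, and Mcm6, a subunit of the replicative helicase, had 3, of which 2 overlap. The mitotic kinase gene Plk1 had a CHR-like match 30 bases after the start and a CCAAT box 14 bases before it. Ccnb2, a B-type cyclin, had 2 CHR-like and 3 CCAAT matches, and the checkpoint kinase gene Bub1 had 1 and 2. Cdkn1b, which encodes the kinase inhibitor p27, had 3 CCAAT matches and neither of the other motifs.

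RefSeq windows were found for 33 of the 42 genes, 36 windows in all. E2F-like letters stood in 7 of 12 licensing and helicase windows (58.3%), in 1 of 4 windows of G1 and S phase genes, 1 of 3 of G2 and M phase genes and 1 of 5 of the retinoblastoma pathway. They stood in 0 of 4 windows of the replication clamp and nucleotide supply and in 0 of 8 of the mitotic kinase and checkpoint genes, against 2.26% of all 32851 windows. CHR-like letters together with a CCAAT box stood in 8 of 8 mitotic kinase and checkpoint windows, in 3 of 12 licensing windows (25%), in 2 of 3 G2 and M phase windows, in 0 of the windows of the other 3 groups, and in 7.52% of all windows. A match is a description of the letters in the window and was not tested as a binding site.

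**Figure D1:**
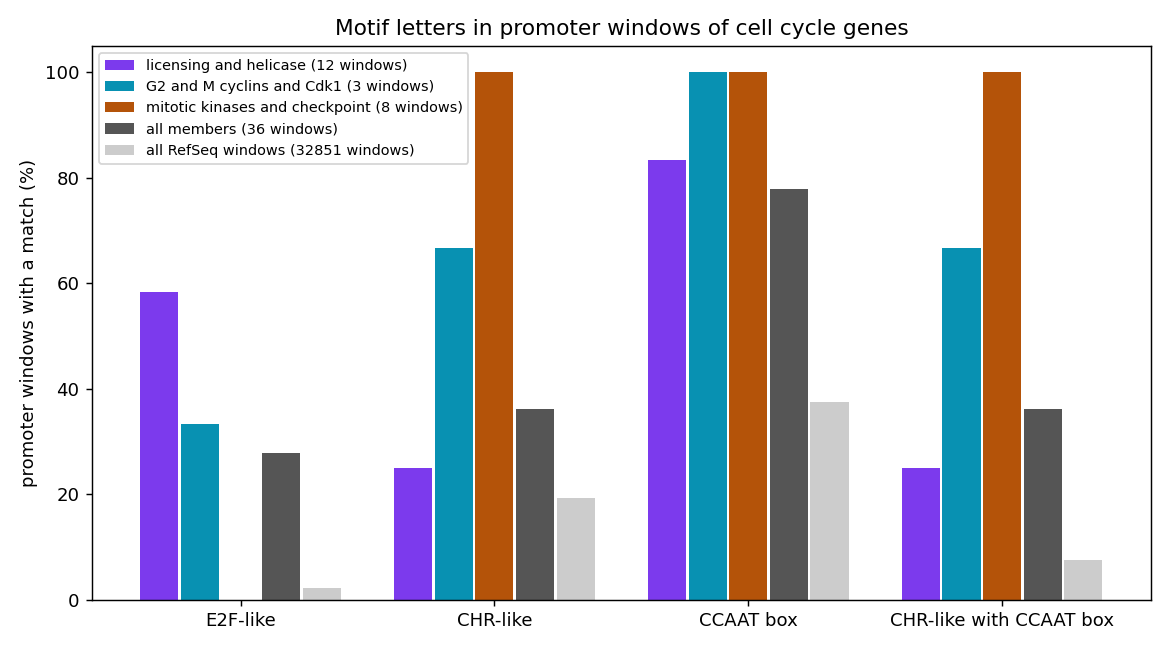
Share of RefSeq promoter windows (300 bases, percent) that hold E2F-like letters, CHR-like letters, a CCAAT box, or the last 2 together, for the groups of cell cycle genes in the legend and for all windows. E2F-like letters reached 58.3% of licensing windows, against 2.26% of all windows, and CHR-like letters with a CCAAT box 100% of the mitotic windows, against 7.52% of all.

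Gene counts per library ran from 7.78 to 14.2 M reads out of total counts of 14.3 to 31.5 M reads. Values are given as CPM (gene counts scaled to a common library size, with TMM factors), and a gene is called when its adjusted p in edgeR's quasi-likelihood test is under 0.05. Tex15 itself was at 3.58, 4.08 and 5.38 CPM in knockout cells at e16.5, against 2122, 1971 and 1695 CPM in heterozygous cells. At e18.5 it was at 1.69, 4.38 and 2.68 CPM in knockout and 1298, 1267 and 1785 CPM in heterozygous cells. At d2 the libraries labelled knockout had 2.03, 101, 2.47 and 2.58 CPM and the heterozygous ones 889, 837, 1005 and 610.3 CPM. Its log2 fold change, knockout over heterozygous, at e16.5 was -8.82 ± 0.21 (adjusted p = 2.11e-10) and at e18.5 -8.96 ± 0.26 (adjusted p = 7.23e-11). The d2 value was -4.97 ± 1.46 (adjusted p = 0.167), and it was called without the library labelled knockout d2 replicate 2 (-8.45, adjusted p = 3.09e-14) or in a fit of all ages (-4.98, adjusted p = 0.0106). The e16.5 call was lost in a fit of all ages (-8.79, adjusted p = 0.206). Replicate 2 of the d2 knockout thus held Tex15 reads well above its group but below every heterozygous library. Without that library the log2 fold changes of the 42 genes that use knockout d2 cells moved by at most 0.29 (knockout against heterozygous, d2), 0.29 (d2 against e18.5) and 0.31 (d2 against e16.5). The counts of calls among the 42 and the d2 genotype values of the genes named are given below with and without it. The 7 germ cell markers summed to 3699 to 6766 CPM and the 10 Sertoli markers to 51.8 to 126 CPM over all libraries. Sums for Leydig, stromal, endothelial, macrophage and red blood cell markers stayed between 2.91 and 340 CPM. In every library 2 of the 3 red blood cell markers and at least 1 of the 6 Leydig markers had no reads, so these sums rest on few genes. In sorted bulk RNA, fewer cells in cycle and less RNA per cell cannot be told apart. Each age has its own deposited table, so table and age cannot be told apart either.

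At e18.5 against e16.5 the log2 fold change was negative for 32 of the 42 genes in knockout and for 32 in heterozygous cells, and at d2 against e18.5 it was positive for 39 and 38. In knockout cells 22 fell and 3 rose at e18.5 against e16.5, where 18.4% of all 18620 genes tested fell and 17.0% rose. Heterozygous cells had 12 that fell and 3 that rose over the same step, against 9.92% and 7.86% of all genes. At d2 against e18.5, 37 rose and 3 fell in knockout cells (25.3% and 29.6% of all genes), and 37 rose and 3 fell in heterozygous cells (23.8% and 27.3%). Without the library labelled knockout d2 replicate 2, 38 rose and 2 fell in knockout cells, where 4669 of 18682 genes rose and 5603 fell. The median log2 fold change of the 42 was -0.76 and -0.56 over the first step in knockout and heterozygous cells, where all genes had 0.07 and 0.05. Over the second step it was 1.58 and 1.68, where all genes had -0.11 and -0.09. The 10 Sertoli markers summed to 84.6 to 126 CPM at d2 and 66.4 to 79.9 CPM at e18.5 in knockout cells, with 3 of 10 called higher, and to 102 to 122 CPM at d2 and 69.3 to 82.2 CPM at e18.5 in heterozygous cells, with 4 of 10 called higher. None of the 10 was called lower in either. Their part in the rise of the 42 was not tested. Both steps share the e18.5 libraries, so the fall and the rise are not independent of each other. Libraries of different ages often did not overlap. At e18.5 against e16.5, 4872 of 16699 genes were lower in this way and 4759 higher in knockout cells, and 3085 and 3232 of 16619 in heterozygous cells. Of the 42, these were 25 and 5, and 16 and 6. At d2 against e18.5, 4663 of 16694 were higher and 4922 lower, and 4388 and 4464 of 16521. Of the 42, these were 38 and 2, and 30 and 3.

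**Figure D2:**
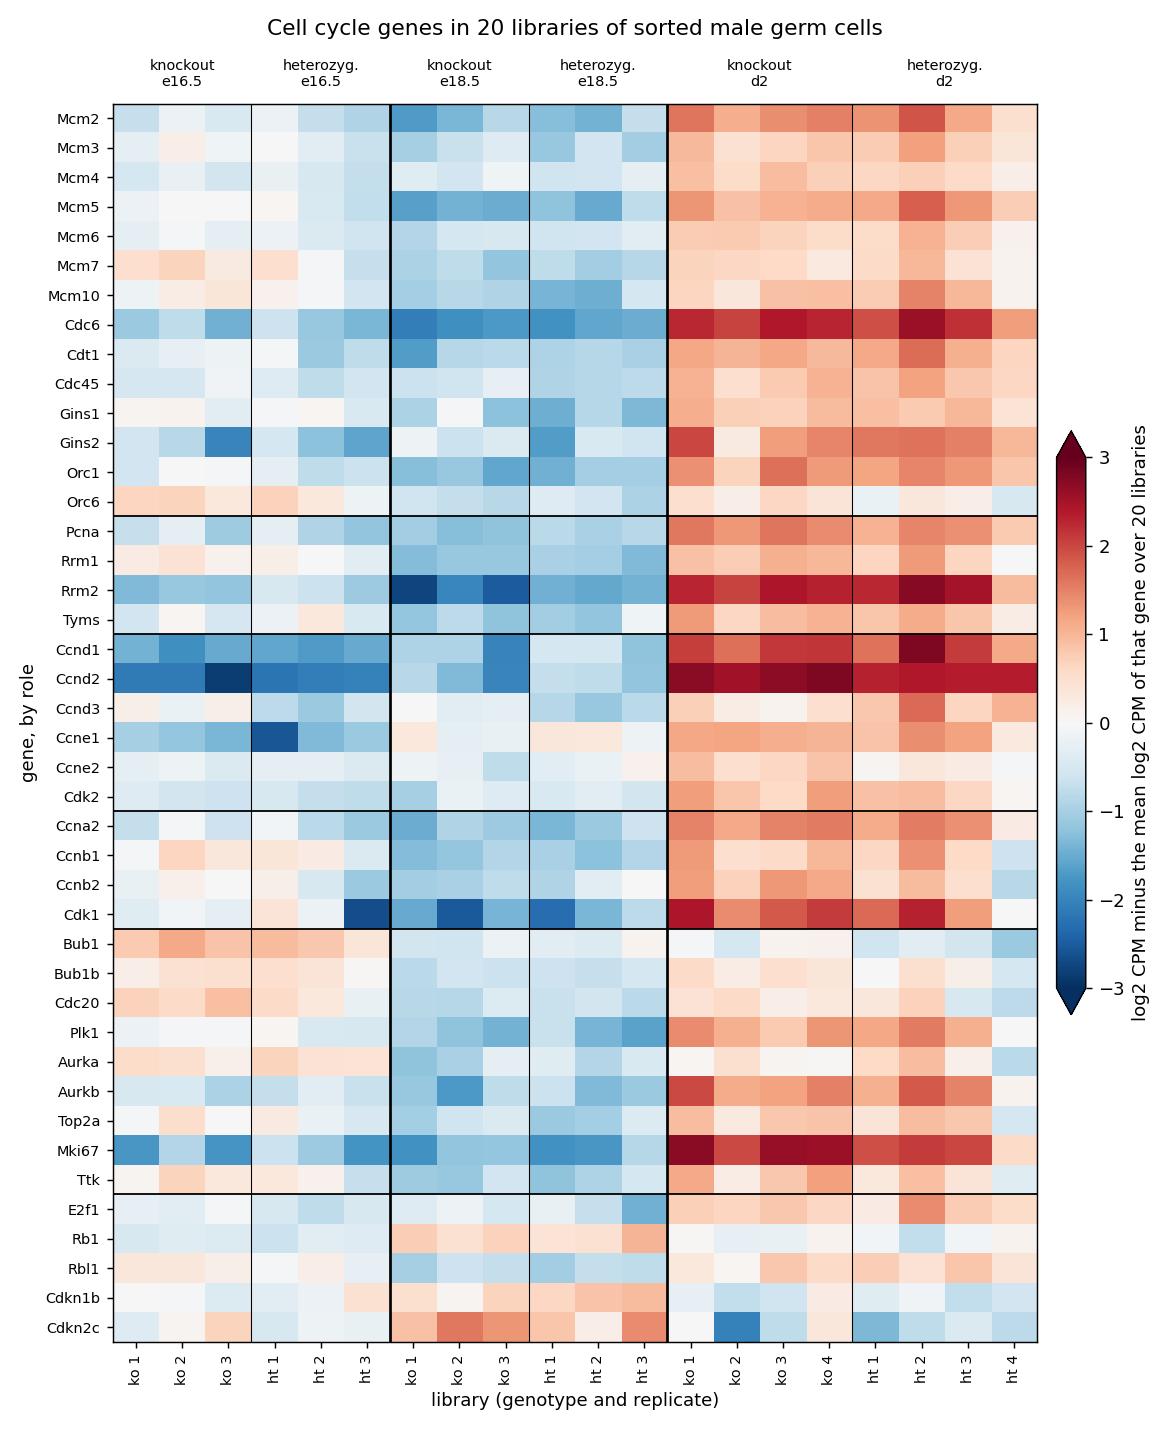
Levels of the 42 genes (rows, by role) in 20 libraries (columns, by age and genotype, knockout left of heterozygous), as log2 CPM minus the gene's mean over all libraries. The d2 columns are high for most rows, while Rb1, Cdkn1b and Cdkn2c are high in the e18.5 columns.

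Of the 22 genes that fell in knockout cells at e18.5, 11 were also among the 12 that fell in heterozygous cells, with Gins1 the remaining heterozygous one. The same 3 genes, Ccnd2, Ccne1 and Rb1, rose in both. Over the step after birth, 36 genes rose in both genotypes, with Ccne2 called in knockout and Ccnd3 in heterozygous cells besides. Cdkn1b, Cdkn2c and Rb1 fell in both. At d2 against e16.5, 27 rose and 1 fell in knockout cells (20.3% and 22.5% of all genes), and 30 rose and 1 fell in heterozygous cells (20.4% and 22.7%), with 26 rising in both and Bub1 the one that fell. Without the library labelled knockout d2 replicate 2, 29 rose and 1 fell in knockout cells, where 3746 of 18682 genes rose and 4120 fell. With all libraries, d2 lay above e16.5 without overlap for 3818 of 15703 genes and below it for 3996 in knockout cells. In heterozygous cells these were 3773 and 3519 of 16022. Of the 42, 28 and 2 did so in knockout and 24 and 1 in heterozygous cells. Scaling on total gene counts shifted the median of all genes by 0.25 in knockout and 0.12 in heterozygous cells at e18.5 against e16.5, and then 14 of the 42 fell and 5 rose in knockout cells. Under that scaling 1975 of all 18620 genes fell and 4342 rose in knockout cells, against 3431 and 3164 with TMM factors. Leaving out heterozygous e16.5 replicate 1, the highest of its group for 29 of the 42, reduced the heterozygous calls of that step to 5 lower and 3 higher. Calls over all genes dropped as well, to 984 lower and 756 higher of 19091, from 1847 and 1464 of 18620. No called gene changed direction under any of 3 other scalings. The germ cell marker sum in knockout cells was 6442 to 6766 CPM (e16.5), 4572 to 5594 CPM (e18.5) and 3963 to 5222 CPM (d2), with none of 7 markers at 0. In heterozygous cells it was 5566 to 6527 CPM (e16.5), 4940 to 6060 CPM (e18.5) and 3699 to 4111 CPM (d2). Its part in the age steps was not tested.

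**Figure D3:**
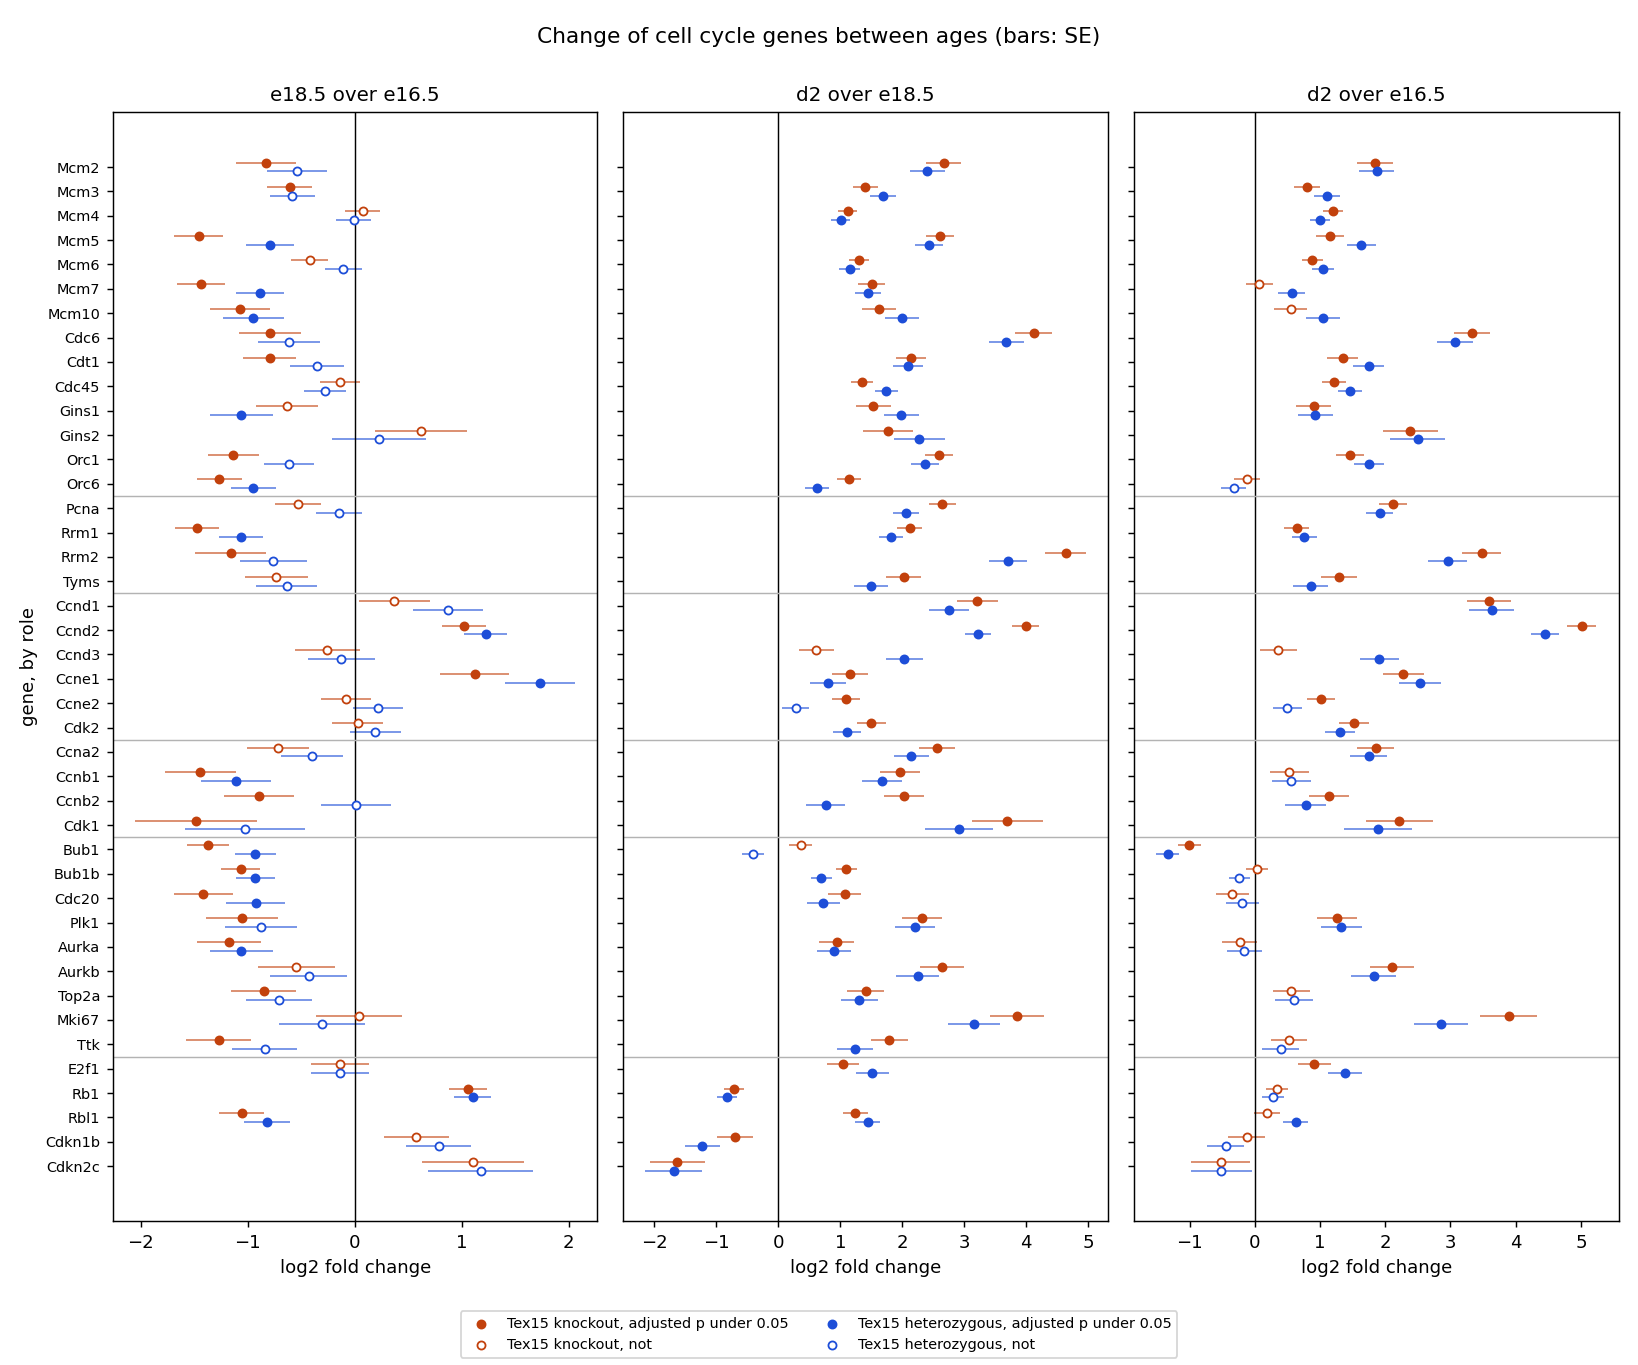
Log2 fold change (point) with its standard error (bar) of each of the 42 genes for the age steps, by genotype. Filled points have an adjusted p under 0.05. Most points lie left of 0 at e18.5 against e16.5 and right of 0 at d2 against e18.5.

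The licensing and helicase genes load and open the replicative helicase at origins. At e18.5 against e16.5, 9 of 14 fell in knockout and 5 of 14 in heterozygous cells, where 18.4% and 9.92% of all genes fell. None rose. All 14 rose at d2 against e18.5 in both genotypes, where 25.3% and 23.8% of all genes rose. Their log2 fold changes were 1.12 to 4.12 in knockout and 0.63 to 3.68 in heterozygous cells. Against e16.5, 11 and 13 of the 14 were higher at d2, where 20.3% and 20.4% of all genes were. The summed level of the 14 in knockout cells was 849 to 1005 CPM (e16.5), 499.8 to 605 CPM (e18.5) and 1516 to 1891 CPM (d2). In heterozygous cells it was 599.9 to 959.6 CPM (e16.5), 523 to 596 CPM (e18.5) and 1158 to 2205 CPM (d2).

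Cdc6 recruits the helicase to the origin recognition complex. Knockout libraries had 6.12, 7.89 and 4.89 CPM (e16.5), 3.14, 3.71 and 4.06 CPM (e18.5), and 63.5, 54.5, 70.8 and 64.7 CPM (d2). Heterozygous libraries had 8.72, 6.09 and 5.17 CPM (e16.5), 3.79, 4.56 and 4.77 CPM (e18.5), and 50.6, 80.8, 60.9 and 31.7 CPM (d2). The d2 libraries all lay above the embryonic ones, in both genotypes. Its log2 fold change at d2 against e18.5 was 4.12 ± 0.29 in knockout cells (adjusted p = 2.04e-11) and 3.68 ± 0.28 in heterozygous cells (adjusted p = 1.12e-10), a 17.4-fold and 12.8-fold rise. Before birth Cdc6 had log2 fold changes of -0.79 ± 0.29 in knockout cells (adjusted p = 0.0365) and -0.61 ± 0.29 in heterozygous cells (adjusted p = 0.141), and the knockout call was lost on leaving out any 1 of knockout e16.5 replicate 1, knockout e16.5 replicate 2, knockout e18.5 replicate 1, knockout e18.5 replicate 2 and knockout e18.5 replicate 3 (-0.60 to -0.88, adjusted p = 0.0511 to 0.174) or with median-ratio factors, with scaling on total gene counts or in a fit of the groups compared alone (-0.53 to -0.78, adjusted p = 0.0557 to 0.133). Orc1, the largest subunit of the origin recognition complex, had 21.1, 31.5 and 30.6 CPM (e16.5), 12.97, 14.3 and 10.7 CPM (e18.5), and 80.7, 49.6, 98.6 and 76.8 CPM (d2) in knockout cells. In heterozygous cells Orc1 had 26.3, 18.6 and 20.1 CPM (e16.5), 11.6, 15.4 and 15.6 CPM (e18.5), and 71.2, 86.8, 77.5 and 55.9 CPM (d2). It rose at d2 by log2 fold changes of 2.59 ± 0.23 in knockout cells (adjusted p = 1.1e-09) and 2.36 ± 0.23 in heterozygous cells (adjusted p = 6.32e-09). Over the earlier step Orc1 fell in knockout cells (-1.13 ± 0.24, adjusted p = 0.00058) and missed the threshold in heterozygous cells (-0.62 ± 0.23, adjusted p = 0.0688).

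Mcm5 and Mcm7 are subunits of the helicase ring. Mcm5 had 49.3, 55.8 and 54.6 CPM (e16.5), 17.9, 20.6 and 19.6 CPM (e18.5), and 139, 101, 114 and 119 CPM (d2) in knockout cells. Its heterozygous libraries had 57.5, 40.3 and 32.97 CPM (e16.5), 23.95, 19.3 and 32.5 CPM (e18.5), and 121, 192, 136 and 91.7 CPM (d2). The e18.5 libraries were the lowest and the d2 libraries the highest in both genotypes. The log2 fold change of Mcm5 at e18.5 against e16.5 was -1.46 ± 0.23 in knockout cells (adjusted p = 3.33e-05) and -0.79 ± 0.23 in heterozygous cells (adjusted p = 0.0164), and at d2 against e18.5 it was 2.61 ± 0.23 in knockout cells (adjusted p = 7.92e-10) and 2.43 ± 0.23 in heterozygous cells (adjusted p = 3.21e-09). Its heterozygous fall lost its call on leaving out any 1 of heterozygous e16.5 replicate 1, heterozygous e18.5 replicate 1 and heterozygous e18.5 replicate 2 (-0.54 to -0.75, adjusted p = 0.0598 to 0.159). Mcm7 had 151, 168 and 128 CPM (e16.5), 55.2, 62.97 and 47.03 CPM (e18.5), and 170.1, 164, 162 and 130.1 CPM (d2) in knockout cells. Mcm7 in heterozygous cells stood at 150.1, 103 and 65.9 CPM (e16.5), 62.9, 51.2 and 58.96 CPM (e18.5), and 159, 212, 145 and 114 CPM (d2). Its d2 levels overlapped with those at e16.5 in both genotypes. The fall of Mcm7 at e18.5 against e16.5 was -1.44 ± 0.22 in knockout cells (adjusted p = 3.34e-05) and -0.88 ± 0.22 in heterozygous cells (adjusted p = 0.00706) on the log2 scale, and the rise at d2 against e18.5 was 1.51 ± 0.22 in knockout cells (adjusted p = 2.23e-06) and 1.45 ± 0.21 in heterozygous cells (adjusted p = 4.7e-06). The heterozygous fall was not called without heterozygous e16.5 replicate 1 (-0.55, adjusted p = 0.106).

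Orc6, another subunit of the origin complex, had 126, 128 and 99.2 CPM (e16.5), 53.3, 48.6 and 45.2 CPM (e18.5), and 114, 91.5, 123 and 104 CPM (d2) in knockout cells. Orc6 levels in heterozygous cells were 131, 99.4 and 71.8 CPM (e16.5), 61.5, 53.5 and 41.4 CPM (e18.5), and 70.4, 101, 92.8 and 57.4 CPM (d2). Its d2 libraries overlapped with those of e16.5 in both genotypes, and in heterozygous cells also with those of e18.5. Log2 fold changes of Orc6 were -1.26 ± 0.21 in knockout cells (adjusted p = 5.66e-05) and -0.95 ± 0.21 in heterozygous cells (adjusted p = 0.00243) at e18.5 against e16.5, and 1.14 ± 0.20 in knockout cells (adjusted p = 2.87e-05) and 0.63 ± 0.20 in heterozygous cells (adjusted p = 0.00959) at d2 against e18.5. The heterozygous rise at d2 lost its call without heterozygous e18.5 replicate 3 (0.49, adjusted p = 0.0729). Gins1, a subunit of the GINS complex of the active helicase, had 13.2, 13.4 and 9.704 CPM (e16.5), 6.37, 11.8 and 5.27 CPM (e18.5), and 26.2, 20.4, 19.9 and 23.8 CPM (d2) in knockout cells. Gins1 in heterozygous libraries was at 11.8, 12.8 and 9.03 CPM (e16.5), 4.47, 6.83 and 4.87 CPM (e18.5), and 23.03, 21.4, 24.7 and 16.5 CPM (d2). It fell in heterozygous cells at e18.5 against e16.5 (-1.06 ± 0.29, adjusted p = 0.0135) and did not pass in knockout cells (-0.63 ± 0.29, adjusted p = 0.0874), where 1 library, e18.5 replicate 2, lay well above the other two. Without that library the knockout value passed (-1.06, adjusted p = 0.0116). The heterozygous call was lost on leaving out any 1 of heterozygous e16.5 replicate 1, heterozygous e16.5 replicate 2, heterozygous e18.5 replicate 1 and heterozygous e18.5 replicate 3 (-0.94 to -1.02, adjusted p = 0.0503 to 0.0672). The other 8 members (Mcm2, Mcm3, Mcm4, Mcm6, Mcm10, Cdt1, Cdc45 and Gins2) all rose at d2 against e18.5. Of them, 4 were called lower in knockout cells before birth (Mcm2, Mcm3, Mcm10 and Cdt1) and 1, Mcm10, in heterozygous cells. The knockout calls were lost for Mcm2 with scaling on total gene counts or without any 1 of knockout e16.5 replicate 2, knockout e16.5 replicate 3, knockout e18.5 replicate 1 and knockout e18.5 replicate 2 (adjusted p = 0.0559 to 0.119), for Mcm3 with scaling on total gene counts or without any 1 of knockout e16.5 replicate 2, knockout e18.5 replicate 1 and knockout e18.5 replicate 2 (adjusted p = 0.0637 to 0.172) and for Cdt1 with scaling on total gene counts or without any 1 of knockout e16.5 replicate 3 and knockout e18.5 replicate 1 (adjusted p = 0.0519 to 0.107). The heterozygous call of Mcm10 was lost without any 1 of heterozygous e16.5 replicate 1, heterozygous e16.5 replicate 2, heterozygous e18.5 replicate 1 and heterozygous e18.5 replicate 2 (adjusted p = 0.0716 to 0.108), while Mcm3 passed there without any 1 of heterozygous e16.5 replicate 3 and heterozygous e18.5 replicate 2 (adjusted p = 0.0185 to 0.0292) and Mcm6 passed in knockout cells with the replicate block or in a fit of the groups compared alone (adjusted p = 0.0207 to 0.0441). Mcm4, another ring subunit, named after its values were seen, had log2 fold changes of 0.08 ± 0.16 in knockout cells (adjusted p = 0.739) and -0.01 ± 0.16 in heterozygous cells (adjusted p = 0.98) at e18.5 against e16.5, and in heterozygous cells their sign turned under median-ratio and total-count scaling and with DESeq2.

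Genes of the replication clamp and nucleotide supply also rose after birth. Of the 4, 2 fell in knockout and 1 in heterozygous cells at e18.5 against e16.5, where 18.4% and 9.92% of all genes fell. All 4 rose at d2 in both genotypes, against e18.5 (25.3% and 23.8% of all genes) and against e16.5 (20.3% and 20.4%). Pcna, the sliding clamp, had 35.2, 47.5 and 27.1 CPM (e16.5), 27.8, 23.6 and 24.6 CPM (e18.5), and 171, 139, 172 and 153 CPM (d2) in knockout cells. Pcna in heterozygous cells had 47.4, 30.2 and 25.2 CPM (e16.5), 32.3, 28.9 and 31.8 CPM (e18.5), and 118, 156, 146 and 97.4 CPM (d2). Every d2 library exceeded every embryonic one in both genotypes. The rise of Pcna at d2 against e18.5 was 2.65 ± 0.21 in knockout cells (adjusted p = 1.96e-10) and 2.06 ± 0.21 in heterozygous cells (adjusted p = 1.16e-08) on the log2 scale. Pcna and Tyms, which makes thymidylate, were not called before birth. In knockout cells Pcna passed in a fit of the groups compared alone or without knockout e16.5 replicate 3 (adjusted p = 0.0207 to 0.0391) and Tyms in a fit of the groups compared alone or without any 1 of knockout e16.5 replicate 1 and knockout e18.5 replicate 2 (adjusted p = 0.027 to 0.0492), and in heterozygous cells Tyms passed without heterozygous e18.5 replicate 3 (adjusted p = 0.0256) and Rrm2 without heterozygous e16.5 replicate 3 (adjusted p = 0.0473).

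Rrm1 and Rrm2 are the large and small subunits of ribonucleotide reductase, which makes deoxynucleotides. Rrm1 had 135, 154 and 123 CPM (e16.5), 45.8, 51.2 and 51.4 CPM (e18.5), and 209, 188, 236 and 227 CPM (d2) in knockout cells. Rrm1 levels in heterozygous cells were 127, 112 and 91.5 CPM (e16.5), 57.3, 55.9 and 45.3 CPM (e18.5), and 177, 276, 177 and 114 CPM (d2). At e18.5 all libraries lay below all those of e16.5 in both genotypes. The log2 fold change of Rrm1 at e18.5 against e16.5 was -1.48 ± 0.21 in knockout cells (adjusted p = 7.64e-06) and -1.06 ± 0.20 in heterozygous cells (adjusted p = 0.000747), and both calls held with any 1 library left out. Over the next step it was 2.12 ± 0.20 in knockout cells (adjusted p = 3.45e-09) and 1.82 ± 0.20 in heterozygous cells (adjusted p = 4.89e-08). Rrm2 had 5.68, 6.38 and 6.197 CPM (e16.5), 2.095, 3.61 and 2.51 CPM (e18.5), and 68.3, 57.6, 75.7 and 70.3 CPM (d2) in knockout cells. Rrm2 in heterozygous cells was at 10.2, 9.08 and 6.59 CPM (e16.5), 5.16, 4.87 and 5.25 CPM (e18.5), and 68.1, 92.9, 79.6 and 27.1 CPM (d2). Heterozygous d2 replicate 4 was well below the other d2 libraries for this gene, yet above all embryonic ones. Rrm2 rose at d2 against e18.5 with log2 fold changes of 4.64 ± 0.33 in knockout cells (adjusted p = 2.25e-11) and 3.71 ± 0.31 in heterozygous cells (adjusted p = 3.83e-10), which is 24.9-fold and 13.1-fold.

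None of the 6 G1 and S phase genes fell at e18.5 against e16.5, and 2, Ccnd2 and Ccne1, rose in both genotypes. Over that step 18.4% and 9.92% of all genes fell in knockout and heterozygous cells, and 17.0% and 7.86% rose. In each genotype 5 of the 6 rose at d2 against e18.5, where 25.3% and 23.8% of all genes rose. D-type cyclins activate the kinases that phosphorylate retinoblastoma protein, and E-type cyclins with Cdk2 drive entry into S phase.

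Ccnd2, cyclin D2, had 27.6, 27.5 and 16.7 CPM (e16.5), 67.04, 48.04 and 30.4 CPM (e18.5), and 787, 691, 773 and 839 CPM (d2) in knockout cells. Ccnd2 in heterozygous cells stood at 25.98, 28.6 and 29.4 CPM (e16.5), 72.7, 70.4 and 52.7 CPM (e18.5), and 597, 628, 609 and 608 CPM (d2). The groups of the 3 ages did not overlap in either genotype. Its log2 fold change was 1.02 ± 0.20 in knockout cells (adjusted p = 0.000379) and 1.22 ± 0.20 in heterozygous cells (adjusted p = 0.000181) at e18.5 against e16.5, and 3.99 ± 0.21 in knockout cells (adjusted p = 1.12e-13) and 3.22 ± 0.20 in heterozygous cells (adjusted p = 3.93e-12) at d2 against e18.5. From e16.5 the rise to d2 was 32.3-fold in knockout and 21.8-fold in heterozygous cells. Ccne1, cyclin E1, had 5.15, 4.61 and 3.996 CPM (e16.5), 12.7, 8.37 and 8.82 CPM (e18.5), and 22.99, 23.2, 21.7 and 20.96 CPM (d2) in knockout cells. Ccne1 levels in heterozygous cells were 1.74, 4.098 and 4.77 CPM (e16.5), 13.01, 12.9 and 9.25 CPM (e18.5), and 18.7, 27.1, 23.6 and 12.7 CPM (d2). It rose over both steps, with log2 fold changes of 1.12 ± 0.32 in knockout cells (adjusted p = 0.00805) and 1.73 ± 0.33 in heterozygous cells (adjusted p = 0.000656) and then with log2 fold changes of 1.15 ± 0.29 in knockout cells (adjusted p = 0.00168) and 0.81 ± 0.29 in heterozygous cells (adjusted p = 0.0215). The knockout rise at e18.5 lost its call without knockout e18.5 replicate 1 (0.90, adjusted p = 0.0558), and the heterozygous rise at d2 on leaving out any 1 of heterozygous e18.5 replicate 3, heterozygous d2 replicate 2 and heterozygous d2 replicate 3 (0.65 to 0.74, adjusted p = 0.0517 to 0.103).

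Ccnd1, cyclin D1, had 20.01, 14.8 and 18.7 CPM (e16.5), 28.04, 27.9 and 13.3 CPM (e18.5), and 224, 167, 230.3 and 234 CPM (d2) in knockout cells. Ccnd1 in heterozygous cells was at 18.1, 16.5 and 18.7 CPM (e16.5), 36.9, 37.2 and 23.2 CPM (e18.5), and 164, 371, 228 and 117 CPM (d2). It rose at d2 against e18.5 with log2 fold changes of 3.21 ± 0.33 in knockout cells (adjusted p = 1.05e-07) and 2.76 ± 0.32 in heterozygous cells (adjusted p = 7.19e-07). The earlier step did not pass for Ccnd1, with 0.37 ± 0.33 in knockout cells (adjusted p = 0.398) and 0.87 ± 0.33 in heterozygous cells (adjusted p = 0.0724), but the heterozygous value passed with DESeq2, with scaling on total gene counts or in a fit of the groups compared alone (adjusted p = 0.0187 to 0.0428). Ccnd3, cyclin D3, had 9.698, 7.53 and 9.704 CPM (e16.5), 8.62, 6.85 and 7.09 CPM (e18.5), and 14.2, 10.1, 9.38 and 12.2 CPM (d2) in knockout cells. Ccnd3 levels in heterozygous cells were 5.04, 3.99 and 5.88 CPM (e16.5), 4.82, 3.93 and 4.96 CPM (e18.5), and 15.1, 28.2, 13.5 and 17.7 CPM (d2). The knockout libraries lay above the heterozygous ones at both embryonic ages, as they did for 1175 of 15772 genes at e16.5 and 1483 of 17168 at e18.5. The genotypes overlapped at d2. Ccnd3 rose at d2 against e18.5 in heterozygous cells, while the knockout value did not pass: the log2 fold changes were 0.61 ± 0.28 in knockout cells (adjusted p = 0.0697) and 2.03 ± 0.30 in heterozygous cells (adjusted p = 3.53e-06). The remaining 2 genes, Ccne2 and Cdk2, had no call at e18.5 against e16.5, and Cdk2 rose after birth in both genotypes.

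Cyclins A2, B1 and B2 and Cdk1, the kinase they activate, drive the cell through G2 into mitosis. Of these 4 genes, 3 fell in knockout and 1 in heterozygous cells at e18.5 against e16.5, where 18.4% and 9.92% of all genes fell. All 4 rose at d2 against e18.5 in both genotypes, where 25.3% and 23.8% of all genes rose. Ccnb2 was among the 3 that fell. Its knockout fall lost its call with median-ratio factors, with scaling on total gene counts, with no filter on low counts or without any 1 of knockout e16.5 replicate 2, knockout e16.5 replicate 3, knockout e18.5 replicate 1, knockout e18.5 replicate 2 and knockout e18.5 replicate 3 (adjusted p = 0.055 to 0.119), and its heterozygous rise with median-ratio factors, with no filter on low counts, in a fit of the groups compared alone or without any 1 of heterozygous e18.5 replicate 1, heterozygous e18.5 replicate 2, heterozygous d2 replicate 1, heterozygous d2 replicate 2 and heterozygous d2 replicate 3 (adjusted p = 0.0618 to 0.19). Ccnb1 had 33.6, 53.8 and 42.97 CPM (e16.5), 13.9, 15.4 and 18.7 CPM (e18.5), and 82.8, 48.6, 50.8 and 68.2 CPM (d2) in knockout cells. Ccnb1 in heterozygous cells had 43.9, 40.4 and 25.2 CPM (e16.5), 17.4, 14.6 and 18.7 CPM (e18.5), and 52.7, 88.7, 51.4 and 22.1 CPM (d2). Each e18.5 library lay below each e16.5 library, and the d2 libraries overlapped with e16.5. Ccnb1 had log2 fold changes of -1.44 ± 0.33 in knockout cells (adjusted p = 0.00175) and -1.11 ± 0.33 in heterozygous cells (adjusted p = 0.0213) at e18.5 against e16.5, and with log2 fold changes of 1.97 ± 0.32 in knockout cells (adjusted p = 1.95e-05) and 1.67 ± 0.32 in heterozygous cells (adjusted p = 0.000135) at d2 against e18.5. The heterozygous fall lost its call on leaving out any 1 of heterozygous e16.5 replicate 1, heterozygous e16.5 replicate 2, heterozygous e18.5 replicate 1 and heterozygous e18.5 replicate 2 (-0.95 to -1.13, adjusted p = 0.0598 to 0.105).

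Ccna2 had 66.5, 107 and 70.8 CPM (e16.5), 39.001, 58.2 and 51.8 CPM (e18.5), and 306, 242, 307 and 320.2 CPM (d2) in knockout cells. Ccna2 levels in heterozygous cells were 103, 62.8 and 50.5 CPM (e16.5), 42.5, 50.6 and 71.2 CPM (e18.5), and 237, 319, 283 and 129.9 CPM (d2). Its rise at d2 against e18.5 was 2.57 ± 0.29 in knockout cells (adjusted p = 3.49e-07) and 2.15 ± 0.29 in heterozygous cells (adjusted p = 3.52e-06), while the step before birth did not pass, with -0.71 ± 0.29 in knockout cells (adjusted p = 0.0604) and -0.40 ± 0.29 in heterozygous cells (adjusted p = 0.361), except in knockout cells in a fit of the groups compared alone (adjusted p = 0.00369). Cdk1 was covered by few reads, with 5.504, 6.73 and 5.87 CPM (e16.5), 2.498, 1.24 and 2.68 CPM (e18.5), and 38.1, 18.8, 25.3 and 30.1 CPM (d2) in knockout cells. Cdk1 in heterozygous cells was at 9.21, 6.31 and 1.12 CPM (e16.5), 1.45, 2.75 and 4.102 CPM (e18.5), and 23.03, 34.98, 16.9 and 7.07 CPM (d2). Every d2 library lay above every e18.5 one in its genotype, with log2 fold changes of 3.70 ± 0.57 in knockout cells (adjusted p = 1.1e-05) and 2.91 ± 0.55 in heterozygous cells (adjusted p = 0.000134). The knockout fall at e18.5 (-1.48 ± 0.57, adjusted p = 0.0461) lost its call on leaving out any 1 of knockout e16.5 replicate 1, knockout e16.5 replicate 2, knockout e16.5 replicate 3, knockout e18.5 replicate 1, knockout e18.5 replicate 2 and knockout e18.5 replicate 3 (-1.22 to -1.68, adjusted p = 0.0674 to 0.157) or with median-ratio factors, with scaling on total gene counts, with no filter on low counts or with the replicate block (-1.23 to -1.48, adjusted p = 0.0561 to 0.0832).

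**Figure D4:**
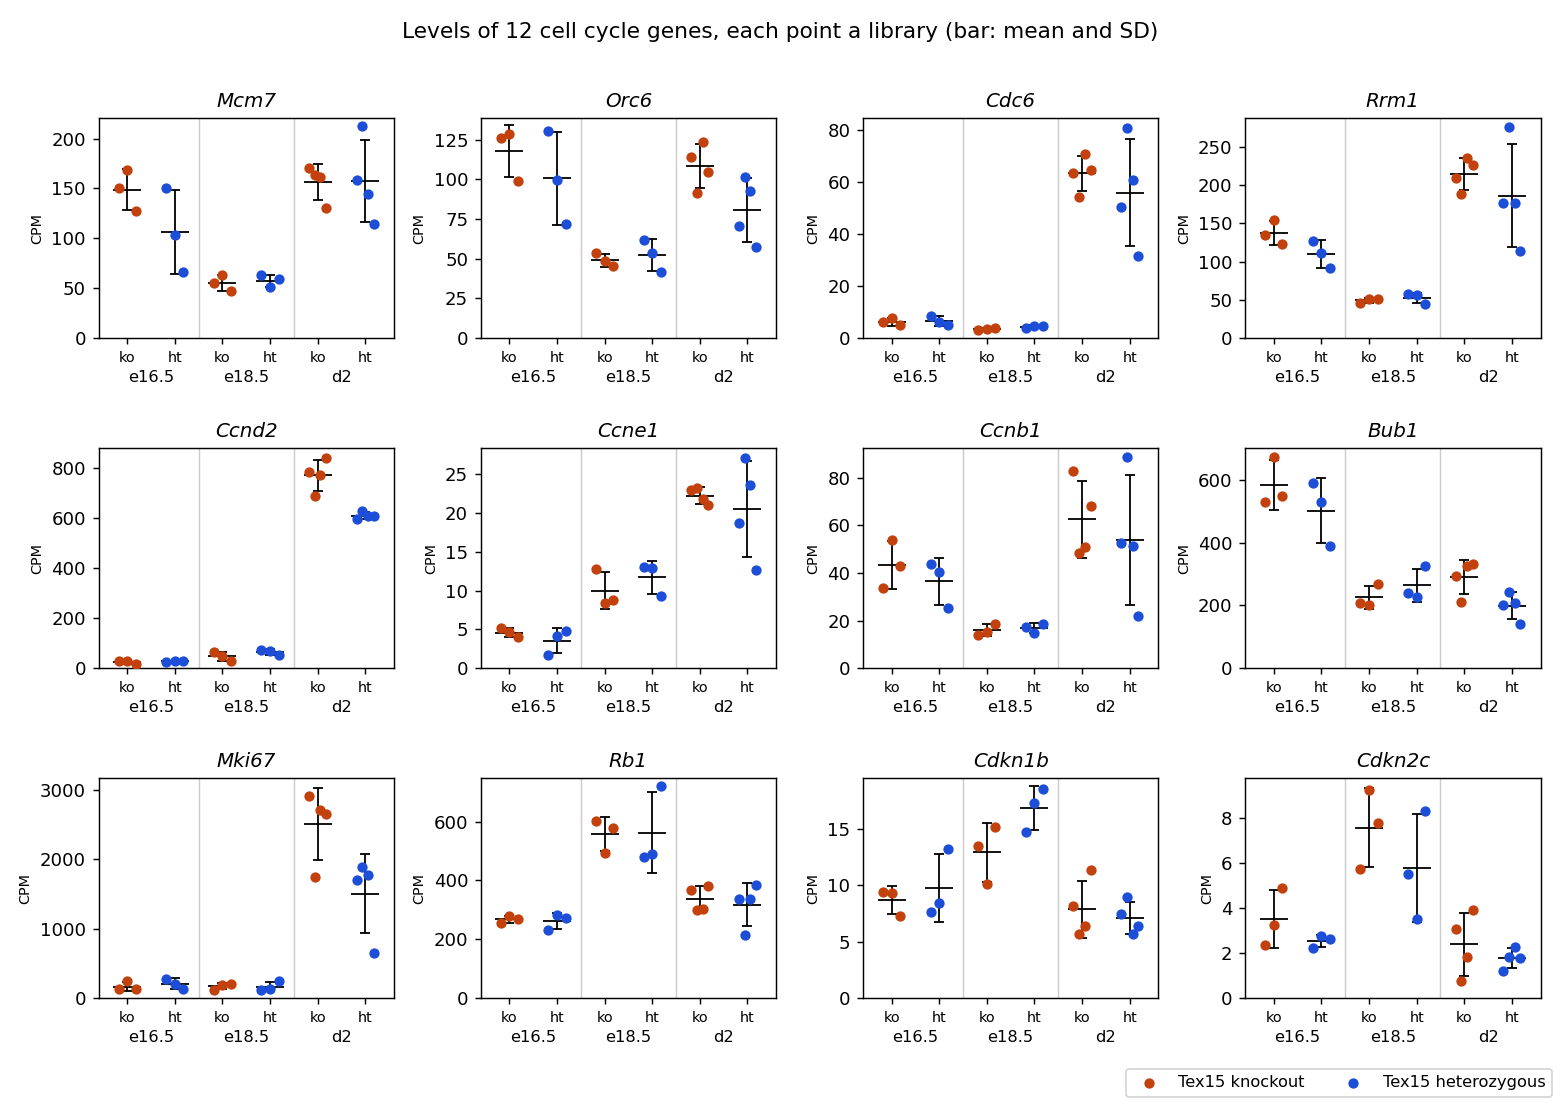
CPM of 12 of the genes in each library (points; y axis from 0), knockout left of heterozygous at each age, with the group mean and SD. Ccnd2 and Mki67 stand far higher at d2 than before birth, Bub1 is highest at e16.5, and Rb1 is highest at e18.5. The 12 were picked after their values were seen.

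Of the 9 mitotic kinase, checkpoint and chromosome genes, 7 fell in knockout and 4 in heterozygous cells at e18.5 against e16.5. There 18.4% and 9.92% of all genes fell. None of the 9 was called higher. At d2 against e18.5, 8 of 9 rose in both genotypes, Bub1 being the exception, where 25.3% and 23.8% of all genes rose. Of those not described singly, Cdc20 was called lower before birth in both genotypes, and Ttk and the topoisomerase gene Top2a in knockout cells. Heterozygous Cdc20 lost its call with scaling on total gene counts or without any 1 of heterozygous e16.5 replicate 1, heterozygous e16.5 replicate 2, heterozygous e18.5 replicate 1 and heterozygous e18.5 replicate 3 (adjusted p = 0.0507 to 0.126), and that of its rise after birth in a fit of the groups compared alone or without any 1 of heterozygous e18.5 replicate 1, heterozygous e18.5 replicate 3, heterozygous d2 replicate 1 and heterozygous d2 replicate 2 (adjusted p = 0.0539 to 0.138). Knockout Top2a lost its call with median-ratio factors, with scaling on total gene counts, with no filter on low counts or without any 1 of knockout e16.5 replicate 2, knockout e18.5 replicate 1 and knockout e18.5 replicate 2 (adjusted p = 0.055 to 0.167). In heterozygous cells Ttk passed with DESeq2, in a fit of the groups compared alone or without heterozygous e16.5 replicate 3 (adjusted p = 0.0131 to 0.0277) and Top2a in a fit of the groups compared alone (adjusted p = 0.0284). Against e16.5, 3 of the 9 were higher and 1 lower at d2 in each genotype. Of all genes, 20.3% were higher and 22.5% lower in knockout cells, and 20.4% and 22.7% in heterozygous cells.

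Bub1, a kinase of the spindle checkpoint, had 528, 674 and 547 CPM (e16.5), 207, 202 and 269 CPM (e18.5), and 295, 212, 325 and 331 CPM (d2) in knockout cells. Bub1 in heterozygous cells had 589, 529 and 388 CPM (e16.5), 240.2, 227 and 325 CPM (e18.5), and 202, 244, 208 and 141 CPM (d2). Its e16.5 libraries lay above all others in both genotypes. Bub1 fell at e18.5 against e16.5 with log2 fold changes of -1.37 ± 0.20 in knockout cells (adjusted p = 1.32e-05) and -0.93 ± 0.20 in heterozygous cells (adjusted p = 0.00176), and its d2 level was lower than at e16.5 with log2 fold changes of -1.004 ± 0.18 in knockout cells (adjusted p = 5.94e-05) and -1.34 ± 0.18 in heterozygous cells (adjusted p = 1.32e-06). Neither genotype passed at d2 against e18.5, with 0.36 ± 0.18 in knockout cells (adjusted p = 0.0948) and -0.41 ± 0.18 in heterozygous cells (adjusted p = 0.0604). The heterozygous value passed without heterozygous e18.5 replicate 2 (-0.51, adjusted p = 0.0437), without heterozygous d2 replicate 2 (-0.52, adjusted p = 0.0247) or with DESeq2, with median-ratio factors or with scaling on total gene counts (-0.38 to -0.48, adjusted p = 0.0288 to 0.0438). Bub1b, which encodes the checkpoint protein BubR1, had 131, 157 and 161 CPM (e16.5), 64.9, 76.95 and 72.9 CPM (e18.5), and 171, 134, 162 and 147 CPM (d2) in knockout cells. Bub1b levels in heterozygous cells were 162, 149.97 and 117 CPM (e16.5), 74.2, 71.3 and 79.7 CPM (e18.5), and 116, 160.2, 130.1 and 79.4 CPM (d2). It fell and rose again, with log2 fold changes of -1.06 ± 0.18 in knockout cells (adjusted p = 7.63e-05) and -0.93 ± 0.18 in heterozygous cells (adjusted p = 0.000822) at e18.5 against e16.5 and 1.10 ± 0.17 in knockout cells (adjusted p = 7.1e-06) and 0.69 ± 0.17 in heterozygous cells (adjusted p = 0.00142) at d2 against e18.5.

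Aurka and Aurkb are the Aurora kinases of the spindle poles and the centromeres. Aurka had 40.2, 38.5 and 30.5 CPM (e16.5), 11.8, 13.98 and 22.7 CPM (e18.5), and 28.8, 38.3, 29.2 and 28.03 CPM (d2) in knockout cells. Aurka in heterozygous cells stood at 43.7, 37.3 and 36.5 CPM (e16.5), 21.3, 15.003 and 20.1 CPM (e18.5), and 41.5, 52.2, 30.6 and 15.6 CPM (d2). It fell at e18.5 against e16.5 with log2 fold changes of -1.17 ± 0.30 in knockout cells (adjusted p = 0.0034) and -1.06 ± 0.30 in heterozygous cells (adjusted p = 0.0138), and rose at d2 against e18.5 with log2 fold changes of 0.94 ± 0.28 in knockout cells (adjusted p = 0.00636) and 0.90 ± 0.28 in heterozygous cells (adjusted p = 0.00903). The heterozygous calls were lost for the fall without heterozygous e16.5 replicate 1 (-0.97, adjusted p = 0.0611) or without heterozygous e18.5 replicate 2 (-0.92, adjusted p = 0.0735), and for the rise without heterozygous e18.5 replicate 2 (0.76, adjusted p = 0.0564) or without heterozygous d2 replicate 2 (0.64, adjusted p = 0.0526). Aurkb had 6.73, 6.91 and 4.89 CPM (e16.5), 4.27, 2.85 and 5.53 CPM (e18.5), and 37.1, 20.3, 21.7 and 26.95 CPM (d2) in knockout cells. Aurkb levels in heterozygous cells were 5.72, 7.53 and 5.98 CPM (e16.5), 6.06, 3.77 and 4.39 CPM (e18.5), and 19.8, 33.9, 26.5 and 10.2 CPM (d2). Aurkb rose at d2 against e18.5, with log2 fold changes of 2.65 ± 0.35 in knockout cells (adjusted p = 6.55e-07) and 2.25 ± 0.35 in heterozygous cells (adjusted p = 6.45e-06). The step before birth did not pass, with -0.54 ± 0.36 in knockout cells (adjusted p = 0.245) and -0.43 ± 0.36 in heterozygous cells (adjusted p = 0.436).

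Plk1, a kinase acting from mitotic entry to cytokinesis, had 8.74, 9.66 and 9.46 CPM (e16.5), 5.399, 4.28 and 3.72 CPM (e18.5), and 26.3, 20.9, 17.2 and 24.8 CPM (d2) in knockout cells. Plk1 in heterozygous cells was at 10.3, 7.1995 and 7.1005 CPM (e16.5), 6.26, 3.77 and 3.24 CPM (e18.5), and 22.2, 29.4, 20.7 and 9.77 CPM (d2). The e18.5 libraries lay below those of e16.5 in both genotypes. Plk1 fell in knockout cells over that step and missed the threshold in heterozygous cells, with -1.05 ± 0.34 in knockout cells (adjusted p = 0.0164) and -0.88 ± 0.34 in heterozygous cells (adjusted p = 0.0703), and the knockout call was lost without knockout e18.5 replicate 3 (-0.94, adjusted p = 0.0659) or with scaling on total gene counts (-0.80, adjusted p = 0.0613). The heterozygous value passed without heterozygous e18.5 replicate 1 (adjusted p = 0.0352). The d2 rise of Plk1 was 2.32 ± 0.33 in knockout cells (adjusted p = 1.57e-06) and 2.21 ± 0.33 in heterozygous cells (adjusted p = 3.7e-06). Mki67, the proliferation marker that coats mitotic chromosomes, had 133, 243 and 130.4 CPM (e16.5), 127, 194 and 199.7 CPM (e18.5), and 2909, 1749, 2702 and 2644 CPM (d2) in knockout cells. Mki67 levels in heterozygous cells were 285, 209.9 and 129 CPM (e16.5), 126, 132 and 247 CPM (e18.5), and 1699.7, 1892, 1772 and 657 CPM (d2). The d2 libraries of both genotypes lay above all embryonic ones, and heterozygous replicate 4 lay far below the other d2 libraries. Mki67 rose 14.4-fold in knockout and 8.95-fold in heterozygous cells at d2 against e18.5, with log2 fold changes of 3.85 ± 0.43 in knockout cells (adjusted p = 1.97e-06) and 3.16 ± 0.42 in heterozygous cells (adjusted p = 1.41e-05). The step before birth did not pass for Mki67, with 0.04 ± 0.40 in knockout cells (adjusted p = 0.946) and -0.31 ± 0.40 in heterozygous cells (adjusted p = 0.64).

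The retinoblastoma pathway genes moved in both directions. Rb1, which holds E2F factors inactive, had 257, 279 and 268 CPM (e16.5), 601, 492 and 579.6 CPM (e18.5), and 367, 301, 305 and 382 CPM (d2) in knockout cells. Rb1 in heterozygous cells had 230.4, 282 and 274 CPM (e16.5), 478, 489 and 721 CPM (e18.5), and 338, 214, 336 and 385 CPM (d2). The e18.5 libraries were the highest in both genotypes. Rb1 rose at e18.5 against e16.5 with log2 fold changes of 1.06 ± 0.17 in knockout cells (adjusted p = 5.26e-05) and 1.10 ± 0.18 in heterozygous cells (adjusted p = 0.000112), and fell at d2 against e18.5 with log2 fold changes of -0.72 ± 0.16 in knockout cells (adjusted p = 0.000482) and -0.82 ± 0.16 in heterozygous cells (adjusted p = 0.000133). Rbl1, which encodes the related protein p107 and is itself an E2F target, went the other way, with 35.9, 36.1 and 32.1 CPM (e16.5), 14.3, 18.5 and 17.4 CPM (e18.5), and 35.7, 29.7, 50.1 and 42.4 CPM (d2) in knockout cells. Rbl1 levels in heterozygous cells were 27.6, 32.6 and 24.1 CPM (e16.5), 13.8, 17.3 and 16.8 CPM (e18.5), and 47.6, 38.4, 50.6 and 37.05 CPM (d2). It fell at e18.5 against e16.5 with log2 fold changes of -1.05 ± 0.21 in knockout cells (adjusted p = 0.00039) and -0.82 ± 0.21 in heterozygous cells (adjusted p = 0.00785) and rose at d2 against e18.5 with log2 fold changes of 1.24 ± 0.20 in knockout cells (adjusted p = 1.08e-05) and 1.45 ± 0.20 in heterozygous cells (adjusted p = 1.75e-06). The heterozygous fall lost its call without heterozygous e16.5 replicate 2 (-0.70, adjusted p = 0.0578).

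E2f1, an activator of S phase genes, had 16.6, 15.5 and 19.2 CPM (e16.5), 15.2, 17.8 and 13.7 CPM (e18.5), and 32.5, 31.1, 34.8 and 30.4 CPM (d2) in knockout cells. E2f1 in heterozygous cells was at 14.1, 11.7 and 14.2 CPM (e16.5), 16.8, 12.2 and 7.25 CPM (e18.5), and 23.5, 52.8, 33.5 and 28.97 CPM (d2). It rose at d2 against e18.5 with log2 fold changes of 1.05 ± 0.26 in knockout cells (adjusted p = 0.0012) and 1.52 ± 0.26 in heterozygous cells (adjusted p = 2.93e-05), with values near 0 over the step before birth. Cdkn1b had 9.44, 9.304 and 7.26 CPM (e16.5), 13.5, 10.1 and 15.1 CPM (e18.5), and 8.13, 5.71, 6.38 and 11.3 CPM (d2) in knockout cells. Cdkn1b levels in heterozygous cells were 7.66, 8.42 and 13.2 CPM (e16.5), 14.7, 17.3 and 18.5 CPM (e18.5), and 7.44, 8.97, 5.72 and 6.399 CPM (d2). The heterozygous d2 libraries lay below those of e18.5, while the knockout groups overlapped. Cdkn1b was lower at d2 than at e18.5, with log2 fold changes of -0.70 ± 0.28 in knockout cells (adjusted p = 0.0383) and -1.23 ± 0.28 in heterozygous cells (adjusted p = 0.000725). The knockout fall lost its call on leaving out any 1 of knockout e18.5 replicate 1, knockout e18.5 replicate 3, knockout d2 replicate 1, the library labelled knockout d2 replicate 2 and knockout d2 replicate 3 (-0.57 to -0.71, adjusted p = 0.0589 to 0.148) or in a fit of the groups compared alone (-0.72, adjusted p = 0.0666). Cdkn2c, which encodes the inhibitor p18, was covered by 6 to 97 reads and had 2.36, 3.28 and 4.89 CPM (e16.5), 5.72, 9.23 and 7.78 CPM (e18.5), and 3.101, 0.761, 1.82 and 3.91 CPM (d2) in knockout cells. Cdkn2c in heterozygous cells stood at 2.23, 2.77 and 2.64 CPM (e16.5), 5.51, 3.53 and 8.3003 CPM (e18.5), and 1.22, 1.82, 2.29 and 1.796 CPM (d2). The d2 libraries lay below those of e18.5 in both genotypes. Cdkn2c fell at d2 against e18.5, with log2 fold changes of -1.63 ± 0.45 in knockout cells (adjusted p = 0.00329) and -1.69 ± 0.46 in heterozygous cells (adjusted p = 0.00314), and both calls held with any 1 library left out. The e18.5 values of both inhibitors lay above those of e16.5 without passing the test: 0.57 ± 0.30 in knockout cells (adjusted p = 0.141) and 0.79 ± 0.30 in heterozygous cells (adjusted p = 0.0721) for Cdkn1b, and 1.10 ± 0.48 in knockout cells (adjusted p = 0.0722) and 1.18 ± 0.49 in heterozygous cells (adjusted p = 0.0943) for Cdkn2c. Heterozygous Cdkn1b did pass with DESeq2 or without heterozygous e16.5 replicate 3 (adjusted p = 0.026 to 0.0341), and knockout Cdkn2c with DESeq2, with scaling on total gene counts or in a fit of the groups compared alone (adjusted p = 0.0129 to 0.036).

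Between the genotypes none of the 42 genes was called at any age. At e16.5, 0 of 42 were called, where 0.0061% of 16384 genes were, and 2 had an unadjusted p under 0.05, where 7.73% of all genes did. At e18.5, 0 of 42 were called (2.33% of 18075 genes) and 3 had an unadjusted p under 0.05 (11.3%). At d2, 0 of 42 were called (2.8% of 15343 genes) and 8 had an unadjusted p under 0.05 (16.2%). Without the library labelled knockout d2 replicate 2, 2 of the 42 were called there, where 435 of 15812 genes were called higher and 138 lower. DESeq2 called 0, 0 and 2 of the 42 at e16.5, e18.5 and d2, where 0.134%, 3.23% and 5.01% of all genes were called. The median log2 fold change of the 42, by age, was 0.15 (e16.5), -0.08 (e18.5) and 0.16 (d2), where the medians of all genes were -0.01, -0.01 and -0.02. A test that misses the threshold does not show that levels were equal: standard errors at d2 ran up to 0.58 on the log2 scale for Cdkn2c.

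**Figure D5:**
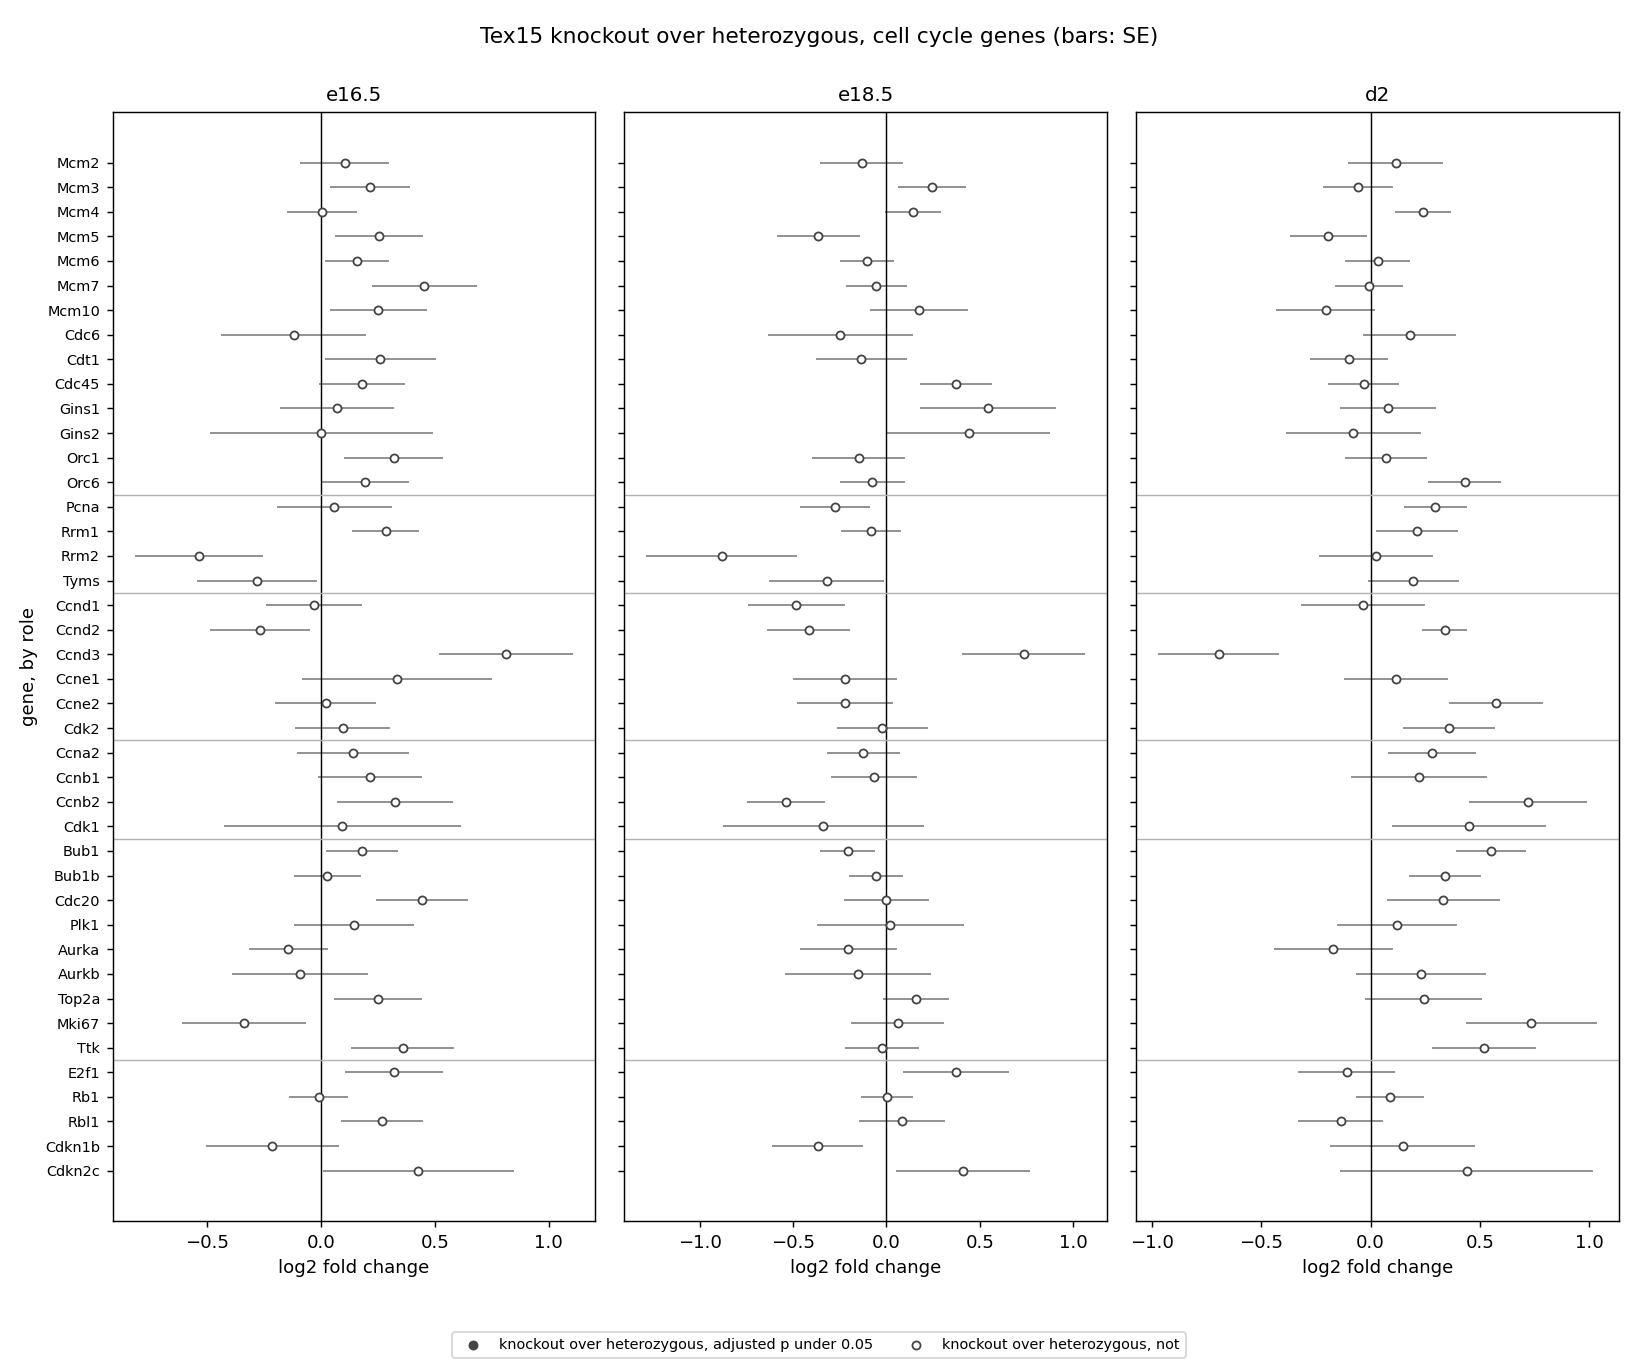
Log2 fold change of knockout against heterozygous cells (point) with its standard error (bar) for each of the 42 genes at e16.5, e18.5 and d2. All points are open, since none had an adjusted p under 0.05, and at d2 most lie right of 0.

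The genes with an unadjusted p under 0.05 are given as values and were named after these were seen. At d2, Bub1 had 295, 212, 325 and 331 CPM in the libraries labelled knockout and 202, 244, 208 and 141 CPM in heterozygous ones, with a log2 fold change of 0.55 ± 0.16 (adjusted p = 0.0745). It passed without heterozygous d2 replicate 2 (0.66, adjusted p = 0.0342), without the library labelled knockout d2 replicate 2 (0.67, adjusted p = 0.0157) or with DESeq2 (0.56, adjusted p = 0.0327). Ccnd2 had 787, 691, 773 and 839 CPM in the d2 libraries labelled knockout, against 597, 628, 609 and 608 CPM in heterozygous ones, with no overlap between the genotypes (0.34 ± 0.10, adjusted p = 0.0866). It passed without the library labelled knockout d2 replicate 2 (0.39, adjusted p = 0.0454) or with DESeq2 (0.35, adjusted p = 0.0324).

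Ccnb2 had 127, 86.5, 132 and 118 CPM in the d2 libraries labelled knockout and 73.1, 103, 75.2 and 30.2 CPM in heterozygous ones (0.72 ± 0.27, adjusted p = 0.193; 0.84, adjusted p = 0.12 without the library labelled knockout d2 replicate 2). It passed without heterozygous d2 replicate 2 (0.96, adjusted p = 0.048). At e18.5 its difference ran the other way, with 26.1, 27.2 and 31.7 CPM in knockout and 28.6, 43.1 and 53.3 CPM in heterozygous cells (-0.54 ± 0.21, adjusted p = 0.285). Ccne2, cyclin E2, had 29.5, 22.2, 23.96 and 28.1 CPM in knockout and 16.5, 19.7, 18.4 and 15.2 CPM in heterozygous cells at d2 (0.57 ± 0.21, adjusted p = 0.172; 0.64, adjusted p = 0.128 without that library). Together with Ccnd2 it was 1 of 2 genes whose genotypes did not overlap at d2 with the knockout higher, where 5.37% of 15498 genes did so. None of the 42 did so with the knockout lower, against 4.29% of genes.

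Mki67, Orc6 and the spindle checkpoint kinase gene Ttk were the others with positive log2 fold changes at d2, at 0.74 ± 0.30 (adjusted p = 0.26) for Mki67, 0.43 ± 0.17 (adjusted p = 0.197) for Orc6 and 0.52 ± 0.24 (adjusted p = 0.303) for Ttk. Without the library labelled knockout d2 replicate 2 they were at 0.87 (adjusted p = 0.11), 0.50 (adjusted p = 0.131) and 0.69 (adjusted p = 0.0894) in the same order. Ttk had 196, 104, 157 and 209 CPM in the libraries labelled knockout and 112, 167, 117 and 69.2 CPM in heterozygous ones. Heterozygous d2 replicate 2 was the highest of its group for 38 of the 42 genes and replicate 4 the lowest for 36, while the library labelled knockout d2 replicate 2 was the lowest of its group for 31. Ccnd3 had a negative value at d2 (-0.70 ± 0.28, adjusted p = 0.206; -0.64, adjusted p = 0.271 without that library). At the embryonic ages Ccnd3 had 0.81 ± 0.29 (adjusted p = 0.629) at e16.5 and 0.73 ± 0.33 (adjusted p = 0.396) at e18.5, and its genotypes did not overlap at either. The knockout was higher without overlap for 1175 of 15772 genes at e16.5 and 1483 of 17168 at e18.5, and lower for 929 and 1416. Of the 42, 3 and 2 were higher in this way, and 1 and 2 lower. The other 2 were Cdc20, an activator of the anaphase-promoting complex, at e16.5 (0.44 ± 0.20, adjusted p = 0.641) and Rrm2 at e18.5 (-0.88 ± 0.40, adjusted p = 0.408). Cdc20 had 45.6, 42.3 and 52.9 CPM in knockout and 41.9, 35.2 and 24.2 CPM in heterozygous cells at e16.5.

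Markers of germ cells and of other cells were compared between the genotypes as well. At e16.5 no marker was called. Sertoli markers summed to 51.8 to 61.6 CPM in knockout and 71.1 to 79.9 CPM in heterozygous cells, and stromal markers to 128 to 159 CPM in knockout and 146 to 295 CPM in heterozygous cells. Of those tested, 4 of 8 Sertoli, 6 of 9 stromal, 3 of 5 Leydig and 2 of 7 germ cell markers had an unadjusted p under 0.05, where 7.73% of all genes did. The Leydig markers summed to 20.6 to 28.9 CPM in knockout and to 23.6, 112 and 29.8 CPM in heterozygous libraries, so heterozygous replicate 2 lay apart. Macrophage markers summed to 87.9 to 109 CPM in knockout and 29.5 to 42.9 CPM in heterozygous cells at e18.5, with 2 of 5 tested called higher, and 1 of 9 stromal markers was called higher, where 2.33% of all genes were called. At d2 the germ cell markers summed to 3963 to 5222 CPM in knockout and 3699 to 4111 CPM in heterozygous cells, with 1 of 7 called higher, where 2.8% of all genes were called. Sertoli markers, with 1 of 8 called lower at d2, summed to 84.6 to 126 CPM in knockout and 102 to 122 CPM in heterozygous cells. Stromal markers summed there to 221.9 to 339.6 CPM in knockout and 176 to 266 CPM in heterozygous cells, with 0 of 10 called and 4 at an unadjusted p under 0.05, where 16.2% of all genes had one. The stromal sum in knockout cells was also higher at e18.5, at 234 to 248 CPM, than at e16.5, with 5 of 10 markers called higher, where 17.0% of all genes were. Their part in the values of the 42 genes was not tested.

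Interaction terms compared the knockout effect of one age with that of another. None of the 42 was called for e18.5 minus e16.5, d2 minus e18.5 or d2 minus e16.5, where 0.0967%, 0.521% and 0.763% of 18620 genes were. Without the library labelled knockout d2 replicate 2 the counts of both contrasts with d2 were also 0. Of 18682 genes, 146 were then higher and 81 lower for d2 minus e18.5, and 114 and 25 for d2 minus e16.5. Unadjusted p-values under 0.05 numbered 1, 7 and 2 of the 42, where 6.61%, 13.5% and 11.7% of all genes had one. Ccnd3 had the smallest p in both contrasts with d2, at -1.42 ± 0.40 (adjusted p = 0.103) and -1.55 ± 0.40 (adjusted p = 0.0691). DESeq2 called it in both (-1.43, adjusted p = 0.0275, and -1.51, adjusted p = 0.016), as 1 of 42 genes each time, where 1.98% and 1.67% of all genes were called. For e18.5 minus e16.5 DESeq2 called 0 of the 42 (0.365% of all genes). Ccnd2 passed for d2 minus e18.5 without knockout e18.5 replicate 1 (1.08, adjusted p = 0.0477), against 0.77 ± 0.26 (adjusted p = 0.172) with all libraries.

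Other genes of the same processes, none of them among the 42, were counted from lists of DNA replication (36 genes), mitosis (47), G1 control (20) and CDK inhibitors (5, of which 4 were tested). At e18.5 against e16.5, 16 DNA replication genes fell and none rose in knockout cells, where 18.4% of all genes fell and 17.0% rose. In heterozygous cells 9 fell and none rose, where 9.92% of all genes fell and 7.86% rose. Of the mitosis genes, 33 fell and 2 rose in knockout cells, and 23 fell and 2 rose in heterozygous cells. G1 control genes had 5 that fell and 3 that rose in knockout cells, and 2 that fell and 1 that rose in heterozygous cells. Of the 4 CDK inhibitors, 1 fell in knockout cells and 1 rose in heterozygous cells. The median log2 fold change of the mitosis list was -0.79 in knockout and -0.70 in heterozygous cells, and that of the replication list -0.51 and -0.36. Mad2l1, the spindle checkpoint protein, fell 3.61-fold in knockout cells (-1.85 ± 0.20, adjusted p = 3.17e-07) and 2.49-fold in heterozygous cells (-1.32 ± 0.20, adjusted p = 7.05e-05). Ndc80, an outer kinetochore protein, fell with a log2 fold change of -1.81 ± 0.23 (adjusted p = 4.08e-06) in knockout cells and -1.27 ± 0.23 (adjusted p = 0.000531) in heterozygous cells. Dut, which clears dUTP from the nucleotide pool, fell with a log2 fold change of -1.95 ± 0.24 (adjusted p = 2e-06) in knockout cells and with a log2 fold change of -1.25 ± 0.23 (adjusted p = 0.000681) in heterozygous cells.

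At d2 against e18.5, 30 replication genes rose and none fell in knockout cells, where 25.3% of all genes rose and 29.6% fell. In heterozygous cells 28 rose and 1 fell, where 23.8% of all genes rose and 27.3% fell. Of the mitosis list, 35 rose and 3 fell in knockout and 31 rose and 6 fell in heterozygous cells. Of the 20 G1 control genes, 12 rose and 3 fell in both genotypes, and of the 4 CDK inhibitors 2 rose in knockout and 1 in heterozygous cells. Uhrf1, which guides maintenance DNA methylation at replication forks, rose 15.7-fold in knockout (3.97 ± 0.25, adjusted p = 4.54e-12) and 15.6-fold in heterozygous cells (3.96 ± 0.25, adjusted p = 3.99e-12). Cdkn1a, which encodes the inhibitor p21, also rose, with a log2 fold change of 3.94 ± 0.45 (adjusted p = 6.16e-08) in knockout and 3.85 ± 0.43 (adjusted p = 6.45e-08) in heterozygous cells, while Cdkn1b and Cdkn2c fell. Foxm1, an activator of mitotic genes, rose in heterozygous cells with a log2 fold change of 2.09 ± 0.20 (adjusted p = 4.4e-09), and E2f8, an atypical E2F repressor, with a log2 fold change of 2.83 ± 0.31 (adjusted p = 4.43e-08). Both also lay higher at d2 in knockout cells. Foxm1 had 53.6 to 55.9 CPM (e18.5) and 152 to 222 CPM (d2) there, and E2f8 4.83 to 9.77 CPM (e18.5) and 32.6 to 69.8 CPM (d2).

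When d2 was set against e16.5, genes of both lists were called in both directions. In knockout cells 16 replication genes were higher and 2 lower, and 20 mitosis genes higher and 7 lower, where 20.3% of all genes were higher and 22.5% lower. Heterozygous cells had 18 replication genes higher and 3 lower, and 15 mitosis genes higher and 9 lower, where 20.4% of all genes were higher and 22.7% lower. Of the G1 control genes 12 were higher and 2 lower in both genotypes, and 2 CDK inhibitors were higher in both. Foxm1 was higher at d2 than at e16.5 with a log2 fold change of 1.65 ± 0.19 (adjusted p = 1.11e-07) in knockout and 1.54 ± 0.19 (adjusted p = 3.47e-07) in heterozygous cells, while Anln, which builds the cleavage furrow, was lower in heterozygous cells with a log2 fold change of -0.88 ± 0.17 (adjusted p = 0.000179). Anln levels also lay lower in knockout cells, at 458 to 669 CPM (e16.5) and 222 to 304 CPM (d2).

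Between genotypes, 0 of the 107 genes tested of these lists were called at e16.5 (0.0061% of all genes), 1 at e18.5 (0.935%, where 2.33% of all genes were called) and 2 at d2 (1.87%, where 2.8% of all genes were called). Cdk6, which pairs with D-type cyclins to phosphorylate retinoblastoma protein, had 18.3, 32.6, 20.6 and 26.4 CPM in the d2 libraries labelled knockout and 47.4, 51.7, 55.3 and 48.3 CPM in heterozygous ones. All knockout values lay below all heterozygous ones, as they did for 4.29% of 15498 genes. The log2 fold change was -1.05 ± 0.20 (adjusted p = 0.00549), called with any 1 of the 8 libraries left out. Without the library labelled knockout d2 replicate 2 it was -1.22 (adjusted p = 0.00198). At e18.5 Cdk6 had 206, 152 and 123 CPM in knockout and 140.1, 143 and 129 CPM in heterozygous cells, and at e16.5 117, 149 and 109.6 CPM in knockout and 134, 119 and 114 CPM in heterozygous cells. Its knockout effect at d2 was below that at e18.5 (-1.28 ± 0.25, adjusted p = 0.0134) and below that at e16.5 (-1.09 ± 0.25, adjusted p = 0.0312). The first of these calls was lost without heterozygous e18.5 replicate 3 (-1.23, adjusted p = 0.0517) or without knockout e18.5 replicate 1 (-1.05, adjusted p = 0.0559), and the second on leaving out any 1 of heterozygous e16.5 replicate 2, heterozygous e16.5 replicate 3, knockout e16.5 replicate 2, heterozygous d2 replicate 2, heterozygous d2 replicate 3, knockout d2 replicate 1 and knockout d2 replicate 3 (-0.94 to -1.07, adjusted p = 0.0516 to 0.131).

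Smc2, a condensin subunit, had 480.1, 392, 491 and 489 CPM in the d2 libraries labelled knockout and 289.6, 342, 361 and 278 CPM in heterozygous ones. The knockout was higher without overlap, as it was for 5.37% of 15498 genes. Its log2 fold change was 0.54 ± 0.12 (adjusted p = 0.016), and 0.62 (adjusted p = 0.00639) without the library labelled knockout d2 replicate 2. Its call was lost on leaving out any 1 of heterozygous d2 replicate 1, knockout d2 replicate 1, knockout d2 replicate 3 and knockout d2 replicate 4 (0.50 to 0.53, adjusted p = 0.0595 to 0.0691). Cdkn1c, which encodes the inhibitor p57, had 38.7, 22.8 and 24.6 CPM in knockout and 42.7, 57.2 and 52.2 CPM in heterozygous cells at e18.5, and was lower in the knockout with a log2 fold change of -0.81 ± 0.21 (adjusted p = 0.0407). It lost its call on leaving out any 1 of heterozygous e18.5 replicate 2, heterozygous e18.5 replicate 3, knockout e18.5 replicate 2 and knockout e18.5 replicate 3 (-0.67 to -0.78, adjusted p = 0.073 to 0.251) or in a fit of all ages (-0.82, adjusted p = 0.253). Over age Cdkn1c rose in heterozygous cells at e18.5 against e16.5 (1.28 ± 0.27, adjusted p = 0.00192). Knockout cells had 19.98 to 21.2 CPM of it at e16.5 and 22.8 to 38.7 CPM at e18.5. At d2, 18 of 47 mitosis genes had an unadjusted p under 0.05 between the genotypes, where 16.2% of all genes did, with a median log2 fold change of 0.28 over the list.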

How the data were processed

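RNA from sorted germ cells was measured in 20 libraries. The deposited values are whole-number read counts per gene and per repeat name, in 1 table for each age. Per the submitters' processing notes, STAR, featureCounts, edgeR, Bowtie and the build mm9 were used by the authors, with no versions. Their strand and multimapper settings are not given in the sources used here.

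From the counts, 1217 repeat names were left out, and the 42 genes were matched by symbol. Knockout and heterozygous cells were compared within each age. Age steps and interactions came from 1 model with all 20 libraries, over the 23854 symbols present in every table. All used edgeR 4.0.16 (R 4.3.3, limma 3.58.1): filterByExpr (minimum count 10, total 15), TMM factors, robust quasi-likelihood F test, Benjamini-Hochberg adjustment over all genes tested, threshold 0.05. Printed CPM come from the common-symbol TMM scaling, so a genotype fold change, fitted within its age, can differ slightly from their ratio. Values after ± on a log2 fold change are standard errors, approximated as the fold change divided by the square root of F. Gene counts per library set the precision, and the errors cover the spread between libraries. The scripts were tested on simulated counts.

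Every one of the 42 is accounted for. Genes are described one by one where they were among the 3 smallest p per role, direction and successive heterozygous age step. The members, lists and promoter windows were chosen with earlier results of these data known. Alternatives were DESeq2 1.42.0, median-ratio or total-count scaling, 2 other filters, a replicate block, another set of libraries in the fit, and leaving out each library in turn. No pair of libraries held identical values.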

Additional observations from a re-analysis of the deposited data

Results flagged for a closer look

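Among the 4 d2 libraries of each genotype, 86 gene and group combinations were examined for a library lying apart (Dixon's test of its gap to the nearest library against the whole range, 95% level), and 4 passed, where chance flags about 1 in 20. Tex15 was at 101.308 CPM in the library labelled knockout d2 replicate 2, against 2.03, 2.47 and 2.58 CPM in the others labelled knockout. In that library Ccnd1 was at 166.986 CPM, below 224, 230.3 and 234 CPM, and Aurka at 38.2915 CPM, above 28.8, 29.2 and 28.03 CPM. Mki67 was at 657.001 CPM in heterozygous d2 replicate 4, against 1699.7, 1892 and 1772 CPM in the other heterozygous d2 libraries. The part that Tex15 reads in that library play in its other values was not tested.

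The effect of the knockout on Cdk6 was called as differing between ages in the interaction terms of edgeR's quasi-likelihood test. The log2 difference was -1.27568 for d2 minus e18.5 (adjusted p = 0.0134) and -1.0859 for d2 minus e16.5 (adjusted p = 0.0312). With 1 library left out the first call held in 12 of 14 fits and the second in 7 of 14. All 4 libraries labelled knockout at d2 lay below all 4 heterozygous ones, as they did for 4.29% of 15498 genes.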

How the results depend on the processing

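Of 253 results for single genes, 206 were called, and 34 of these 206 lost the call under at least 1 alternative. The sign reversed for 0 of the 253. Most of the 253 were called, so this 0 says little about genes without a call. Among all the cell cycle genes, signs between the genotypes did turn under total-count scaling, for 6 genes at e16.5 and 5 at d2. Of those, 0 were called. The count of cell cycle genes called between the genotypes at d2, 0, became 2 with DESeq2, which called 5.01% of all genes, and 0 to 2 on leaving out 1 library. It was 2 without heterozygous d2 replicate 2 or without the library labelled knockout d2 replicate 2. Of all genes those fits called 257 higher and 88 lower of 15697, and 435 and 138 of 15812. For the interactions, 0 became 1 with DESeq2 for d2 minus e18.5 and 1 for d2 minus e16.5, and 0 to 1 on leaving out 1 library for d2 minus e18.5. The heterozygous count at e18.5 against e16.5, 15, ranged from 8 without e16.5 replicate 1 to 20 without e16.5 replicate 3. Calls over all genes moved too, with 984 lower and 756 higher of 19091 in the first of these fits. In the second they were 2203 and 1874 of 19234, and with all libraries 1847 and 1464 of 18620. The cause of this range was not tested. Over the leave-one-out fits the other counts ran from 17 to 24 (knockout, e18.5 against e16.5), 39 to 40 and 37 to 40 (knockout and heterozygous, d2 against e18.5), and 27 to 30 and 28 to 33 (knockout and heterozygous, d2 against e16.5). Same-numbered knockout and heterozygous libraries correlated between -0.195 and 0.095 in their deviations, and differently numbered ones between -0.313 and 0.283. With so few libraries per group these values cannot tell whether replicate numbers pair the libraries. With the replicate block the counts were 25 and 15 (e18.5 against e16.5), 40 and 40 (d2 against e18.5) and 28 and 31 (d2 against e16.5) in knockout and heterozygous cells, and 0 in each genotype and interaction contrast, as without it. In knockout cells at e18.5 against e16.5, Cdk1 then missed the threshold (-1.48, adjusted p = 0.058) and Mcm6 passed it (-0.42, adjusted p = 0.0441). Over all genes the block changed the genotype calls at e18.5 from 373 higher and 49 lower to 490 and 109. At d2 it changed them from 311 and 119 to 199 and 36. Cdk1 and Cdkn2c, both at few reads, were among the genes with the widest errors.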
